A study of Mus musculus with 6 samples.

Results

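The transcripts followed here encode 10 immunoglobulin-like receptors of myeloid cells, namely Sirpa, Pirb, Lilrb4a, Lilr4b, Cd300a, Cd300lf, Cd300ld, Siglece, Siglec1 and Cd33. They were taken by gene name from a table of 54532 mouse genes, and each name matched a single row. The paper describes the RNA as that of activated spleen CD8T cells, cocultured for 24 hr with macrophages primed for 12 hr with 10 ng/mL IFN-γ. The libraries also held abundant macrophage transcripts (values below), so the receptor levels cannot be assigned to the T cells. In the control group (3 samples) the macrophages received no DB2313. In the DB2313 group (3 samples) they had been treated with this small-molecule inhibitor of the transcription factor Spi1 (PU.1), for which the methods give 14 nM. Both groups share the bead activation of the T cells, the IFN-γ priming and the coculture. The sample labels call the RNA that of primary T cells and the partner cells "DC cells" where the paper names thioglycolate-elicited peritoneal macrophages. The strain and age of the mice, and whether the samples came from separate cultures, are not given in the sources used here. The p-values therefore measure the spread between these samples, which may be technical.

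Myeloid cells carry sets of closely related receptors with immunoglobulin domains that either restrain or trigger the cell. Inhibitory members hold an immunoreceptor tyrosine-based inhibitory motif (ITIM) in the cytoplasmic tail, which recruits the phosphatases SHP-1, SHP-2 and SHIP-1 once it is phosphorylated by Src family kinases. Their paired relatives have short tails and signal through adaptors such as DAP12 (Tyrobp) and the Fc receptor gamma chain (Fcer1g). Of the 10 receptors, Sirpa, Pirb, Lilrb4a, Cd300a, Cd300lf and Siglece are ITIM-bearing, whereas Lilr4b, Cd300ld, Siglec1 and mouse Cd33 are not classed as such.

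In cocultures with DB2313-treated macrophages, 9 of the 10 receptors were lower than in the control group, none was higher, and Cd300ld did not pass the test. All 10 passed the filter on low counts. The falls ranged from a log2 fold change of -0.33 in Lilr4b to -2.20 in Siglece. At the same threshold, an adjusted p under 0.05 in edgeR's quasi-likelihood test, 24.6% of the 14883 tested genes were lower and 20.8% were higher. With library size in place of TMM scaling the split over all genes moved from 3667 lower and 3096 higher to 2852 lower and 4931 higher, and 9 receptors were lower in either case, of which Sirpa was then at -0.99 and no longer past the fold threshold given next. Past a log2 fold change of -1 as well, Sirpa, Pirb, Siglece and Cd33 were lower, against 5.3% of all tested genes, and none was higher past a log2 fold change of 1, against 1.37%. The median log2 fold change was -0.70 over the 10 receptors and 0.02 over all tested genes. In RNA of mixed cells, fewer cells of a type and less RNA per cell cannot be told apart.

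Libraries held 16611975 to 18596217 counts, and the receptors had between 22 and 7819 counts in a library. The 20 T cell markers summed to 3998 to 4046 CPM (counts scaled to a common library size, with TMM factors) in the control libraries and 6011 to 6047 CPM with DB2313, and all 20 were higher, with a median log2 fold change of 0.59. The 20 macrophage markers summed to 14230 to 14590 and 5397 to 5534 CPM, and all 20 were lower, with a median of -1.03. The most abundant of them, Lyz2 (lysozyme), was at 7702 ± 133 and 2084 ± 36.6 CPM (mean ± SD of 3 libraries per group). Of the 9 neutrophil markers, 8 were lower and 1 was higher. The higher one was Retnlg, with 4 to 20 counts in a library. The sum of the 9 went from 1630 to 1637 down to 586.8 to 610.0 CPM. Of the 8 dendritic cell markers, 5 were lower and 2 higher. Their sums ranged from 396.6 to 417.9 CPM in the control libraries and from 277.5 to 278.3 CPM with DB2313. Cd24a, the most abundant of these 8, was at 241.1 and 90.71 CPM (means of 3 libraries per group) and weighs most in these sums. The 2 higher were Clec10a, at 38.89 and 87.96 CPM, and Flt3, at 28.21 and 36.24 CPM. Mast cell markers (4 of 7 tested lower, 2 higher) summed to 772.3 to 788.9 and 391.0 to 400.4 CPM. Eosinophil markers (1 of 5 lower, 0 higher) summed to 70.99 to 73.43 and 48.93 to 53.21 CPM. The 1 lower eosinophil marker was Prg2, the most abundant of them, with means of 56.42 and 35.06 CPM. B cell markers (0 of 5 lower, 3 higher) summed to 39.07 to 44.51 and 55.82 to 58.25 CPM. No marker of these lists was at 0 in all libraries, and those under 3 CPM in every library were Retnlg, Xcr1, Tpsab1, Ccr3 and Il5ra. The part of these marker levels in the receptors' changes was not tested. Spi1 itself, the target of DB2313, was at 286.3 ± 6.75 CPM in the control group and 155.6 ± 6.20 CPM with DB2313 (mean ± SD of 3 libraries per group), a log2 fold change of -0.88 (SE 0.04).

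Promoters are shown because Spi1, the target of DB2313, binds DNA at GGAA cores. The RefSeq promoter table for GRCm38.p6, which holds 250 bases before and 50 after each transcription start, covers 7 of the 10 receptors. The motif GAGGAA was searched on both strands, and so was the longer GAGGAAGT, every match of which also contains the shorter motif. GAGGAA was present in 6 of the 7 receptors (Cd300a, Cd300ld, Cd300lf, Cd33, Pirb and Siglece) and in 31.3% of the 27025 genes in the table. GAGGAAGT was present in 3 of the 7 (Cd300ld, Cd300lf and Pirb) and in 3.7% of all genes. The sequences below are first those of Siglece, which fell most, and Pirb, which also holds 3 copies of GAGGAA. They are followed by Cd300ld, which holds 1 copy of GAGGAA and did not change past the threshold, and Lilr4b, which holds no GAGGAA and fell. GGAA cores outside GAGGAA were not counted, and the sequences of Siglece, Cd300ld and Lilr4b also hold such cores. All sequences run 5′ to 3′ on the strand of the gene, with the shorter motif in capitals on either strand.
Siglece, chr7:43660112-43660411, minus strand: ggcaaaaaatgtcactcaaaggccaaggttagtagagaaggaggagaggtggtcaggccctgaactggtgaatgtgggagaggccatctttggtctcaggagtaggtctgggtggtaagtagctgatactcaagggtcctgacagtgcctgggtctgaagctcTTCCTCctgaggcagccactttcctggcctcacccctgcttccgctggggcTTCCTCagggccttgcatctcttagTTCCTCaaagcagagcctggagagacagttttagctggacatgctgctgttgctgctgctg
Pirb, chr7:3720333-3720632, minus strand: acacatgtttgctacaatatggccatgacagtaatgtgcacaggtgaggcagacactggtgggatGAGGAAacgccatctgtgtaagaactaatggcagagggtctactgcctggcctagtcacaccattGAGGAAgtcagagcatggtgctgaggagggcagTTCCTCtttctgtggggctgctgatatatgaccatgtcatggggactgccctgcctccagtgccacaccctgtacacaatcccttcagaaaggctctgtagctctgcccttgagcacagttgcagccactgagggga
Cd300ld, chr11:114989837-114990136, minus strand: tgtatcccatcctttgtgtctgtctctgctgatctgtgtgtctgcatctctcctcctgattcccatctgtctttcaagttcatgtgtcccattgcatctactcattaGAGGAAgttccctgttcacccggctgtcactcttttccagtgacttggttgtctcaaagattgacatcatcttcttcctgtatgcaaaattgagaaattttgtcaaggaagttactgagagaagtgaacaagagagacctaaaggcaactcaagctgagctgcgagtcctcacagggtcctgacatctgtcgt
Lilr4b, chr10:51480362-51480661, plus strand: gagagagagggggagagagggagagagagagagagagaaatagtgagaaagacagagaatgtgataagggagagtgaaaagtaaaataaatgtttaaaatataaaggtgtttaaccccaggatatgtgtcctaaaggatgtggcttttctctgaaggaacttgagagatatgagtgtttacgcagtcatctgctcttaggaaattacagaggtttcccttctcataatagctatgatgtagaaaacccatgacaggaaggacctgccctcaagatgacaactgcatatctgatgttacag
Counted from 1 at the RefSeq start site, the motifs of Siglece begin at -87, -36 and -11 on the reverse strand. Those of Pirb begin at -185 and -120 on the forward strand and at -87 on the reverse strand, and the copy of Cd300ld begins at -143 on the forward strand. For Cd33, the RefSeq start lies 11257 bases inside the gene as the count table draws it, so its window is not that of the table's first exon. These matches are descriptions of the letters. Binding of Spi1 at them, and any part of it in the receptors' changes, was not tested.

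Sirpa (ENSMUSG00000037902, chromosome 2 of GRCm38 from 129592835 to 129632228, plus strand) encodes SIRPα, the phagocyte receptor for the "do not eat me" ligand CD47. It was the most abundant of the receptors in the control group, at 433.3, 434.9 and 422.8 CPM, and was at 209.0, 199.0 and 201.3 CPM in the DB2313 group. The groups did not overlap. The log2 fold change was -1.08 (SE 0.03, adjusted p = 9.54e-18, edgeR), a 2.12-fold lower level. Every DB2313 library lay below every control library in 9 of the 10 receptors, which held for 27.5% of all tested genes, and none had every DB2313 library above the control libraries, against 25.6%. Its family members Sirpb1a, Sirpb1b and Sirpb1c, activating relatives on chromosome 3, were lower as well, with log2 fold changes of -0.67 (SE 0.14), -1.34 (SE 0.15) and -0.82 (SE 0.08). No stretch of 75 bases in the annotated transcripts of Sirpa occurs in those of another gene.

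Pirb (ENSMUSG00000058818, chromosome 7 from 3711409 to 3720391, minus strand) encodes paired immunoglobulin-like receptor B, which binds MHC class I molecules and carries several ITIMs. It was at 153.2, 154.1 and 153.1 CPM in the control libraries and at 72.06, 72.9 and 62.17 CPM with DB2313. The control libraries lay within 1 CPM of each other (SD 0.558), and all DB2313 libraries were under 73 CPM. The log2 fold change was -1.15 (SE 0.05, adjusted p = 2.68e-15, edgeR). The activating relatives Pira2 and Lilra6 lie on the same chromosome and were lower, by a log2 fold change of -0.96 (SE 0.13) from 12.8 ± 1.63 CPM and of -1.50 (SE 0.12) from 16.1 ± 1.02 CPM (mean ± SD of 3 libraries per group). Of the 75-base stretches in Pirb transcripts, 26.03% also occur in other genes, among them Gm14548, Pira2 and Gm15922, so the division of reads within this family is uncertain.

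Lilrb4a and Lilr4b lie side by side on chromosome 10 and encode the gp49 receptors, of which gp49B (Lilrb4a) has ITIMs and gp49A (Lilr4b) lacks them. Lilrb4a (ENSMUSG00000112148, from 51490956 to 51496611) was at 201.7, 188.0 and 183.4 CPM in the control libraries and at 128.9, 120.5 and 133.5 CPM with DB2313. Its log2 fold change was -0.58 (SE 0.04, adjusted p = 8.66e-11, edgeR). Lilr4b (ENSMUSG00000112023, from 51480632 to 51486703) was at 353.8, 348.5 and 342.9 CPM and at 275.9, 267.9 and 286.9 CPM. It showed the smallest of the 9 falls, with a log2 fold change of -0.33 (SE 0.03, adjusted p = 3.04e-08, edgeR), and its groups did not overlap. The ratio of Lilrb4a to Lilr4b was 0.57, 0.539 and 0.535 in the control libraries and 0.467, 0.45 and 0.465 with DB2313, a log2 difference of -0.25 (exact permutation test, two-sided, p = 0.1, which no split of 3 and 3 samples can go below). Between these genes 16.33% of the 75-base stretches of Lilrb4a and 14.65% of those of Lilr4b are shared. A gene model that spans both, Gm49339, covers 35.3% of the exonic bases of Lilrb4a and 2.2% of those of Lilr4b and had 1 to 16 counts in a library. How reads in shared exons were treated is not given in the sources used here, so the ratio may carry that choice.

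**Figure D1:**
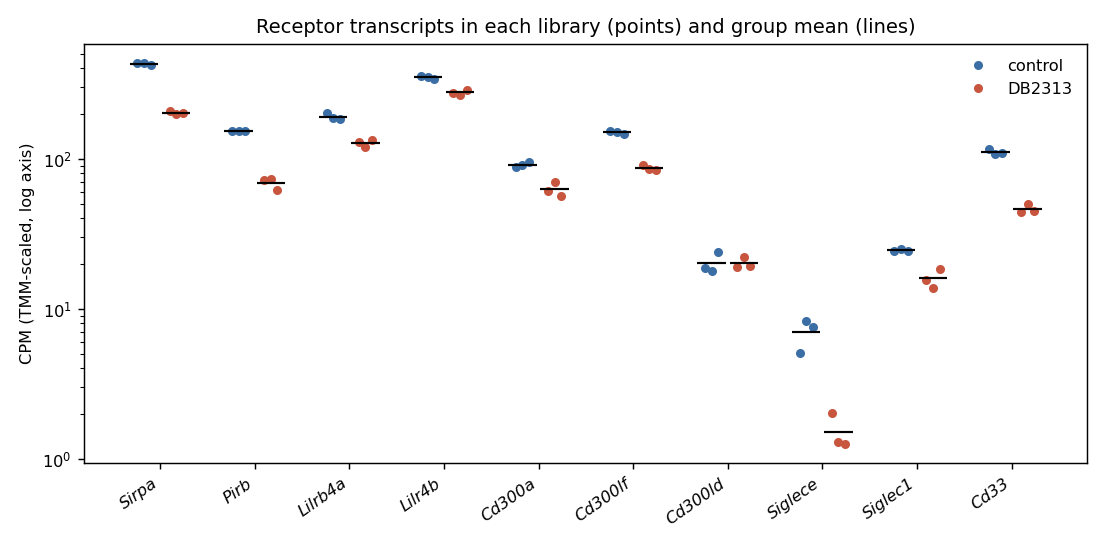
Level of each receptor transcript in the 3 control and 3 DB2313 libraries, in TMM-scaled CPM on a log axis (points, 1 per library; black lines, group means). The DB2313 points lie below all control points for 9 receptors and among them for Cd300ld, at 18.95 to 22.27 CPM against 17.92 to 23.76 CPM.

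Of the CD300 receptors, Cd300a and Cd300lf are ITIM-bearing and recognise lipids exposed on dying cells, while Cd300ld is a short-tailed member that pairs with an activating adaptor. Cd300a (ENSMUSG00000034652, chromosome 11 from 114890041 to 114904654, plus strand) was at 88.4, 91.18 and 94.69 CPM in the control libraries and at 61.28, 69.5 and 56.41 CPM with DB2313. Its log2 fold change was -0.55 (SE 0.06, adjusted p = 4.87e-08, edgeR), with no overlap between the groups. Cd300lf (ENSMUSG00000047798, chromosome 11 from 115116214 to 115133992, minus strand) was at 153.0, 149.8 and 147.1 CPM and at 91.17, 84.98 and 83.53 CPM. Its log2 fold change was -0.79 (SE 0.04, adjusted p = 1.41e-13, edgeR). Cd300lf lies within Rab37 on the opposite strand, but they share 0 exonic bases. Both ITIM-bearing genes were lower in all DB2313 libraries.

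Cd300ld (ENSMUSG00000034641, chromosome 11 from 114982274 to 114989922, minus strand) was at 18.57, 17.92 and 23.76 CPM in the control libraries and at 18.95, 22.27 and 19.13 CPM with DB2313. The groups overlapped throughout. Its log2 fold change was 0.003 (SE 0.10, adjusted p = 0.984, edgeR), with an approximate 95% interval from -0.201 to 0.207. A scaling to the T cell markers, which shifts the median of all genes from 0.02 to -0.56, placed it at -0.58 (adjusted p = 2.21e-05, edgeR), close to that shift. Cd300lb and Cd300c2, adaptor-dependent receptors, had log2 fold changes of -0.64 (SE 0.07) and -0.43 (SE 0.06), and Cd300c and Cd300e, at most a few CPM, had -1.19 (SE 0.34) and -1.87 (SE 0.34). All 5 tested Cd300 relatives were lower, the fifth being the distant Cd300lg with 0 to 27 counts in a library. Cd300ld2, Cd300ld3, Cd300ld4 and Cd300ld5, on the same chromosome, had 0 to 19 counts in a library and were not tested. Whether the change of Cd300ld differs from that of each neighbour was not tested.

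Siglecs bind sialic acid at the ends of glycan chains on the same or neighbouring cells. Siglece (ENSMUSG00000030474, chromosome 7 from 43651070 to 43660161, minus strand), an ITIM-bearing Siglec of neutrophils and macrophages, had 92, 143 and 124 counts in the control group and 37, 22 and 23 counts with DB2313. In CPM this was 5.099, 8.32 and 7.575 against 2.003, 1.289 and 1.25. It had the fewest counts and showed the largest fall of the 10 receptors, with a log2 fold change of -2.20 (SE 0.24, adjusted p = 4.39e-08, edgeR). Without each library in turn this ranged from -2.45 to -2.05. Cd33 (ENSMUSG00000004609, chromosome 7 from 43524216 to 43544428, minus strand), a myeloid Siglec, was at 115.7, 108.2 and 108.7 CPM and at 44.39, 49.87 and 44.62 CPM, a 2.4-fold lower level. Its log2 fold change was -1.26 (SE 0.05, adjusted p = 2.19e-15, edgeR).

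Siglec1 (ENSMUSG00000027322, chromosome 2 from 131069220 to 131086765, minus strand) encodes sialoadhesin, an adhesion receptor of tissue macrophages without an ITIM. It was at 24.16, 25.08 and 24.19 CPM in the control libraries and at 15.65, 13.77 and 18.53 CPM with DB2313. The control libraries were close together and the DB2313 libraries spread more widely, yet the groups did not overlap. The log2 fold change was -0.61 (SE 0.10, adjusted p = 1.46e-05, edgeR). Among the other Siglecs, Siglecf, known from eosinophils, had a log2 fold change of -2.06 (SE 0.14, adjusted p = 2.32e-11, edgeR) and Mag, the myelin-associated member, of -2.34 (SE 0.21, adjusted p = 1.88e-09, edgeR). Cd22, the B cell Siglec, was at -0.42 (SE 0.15, adjusted p = 0.0263, edgeR), which did not pass with DESeq2 (adjusted p = 0.093), with library size or upper quartile scaling (adjusted p = 0.0758 and 0.0539, edgeR), or without control replicate 1 or 2 (adjusted p = 0.119 and 0.054, edgeR) or DB2313 replicate 2 (adjusted p = 0.14, edgeR). Siglecg, also of B cells, was at -0.19 (SE 0.12, adjusted p = 0.224, edgeR), and passed without DB2313 replicate 2 (adjusted p = 0.0415, edgeR). Over all families, 13 of the 15 tested relatives were lower, 0 were higher, and the exceptions were Siglecg and Lilra5. The median log2 fold change of the 15 was -0.96. Of the 11 Pir and Lilr relatives listed, only 3 were found by name and tested, so this family is covered in part.

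**Figure D2:**
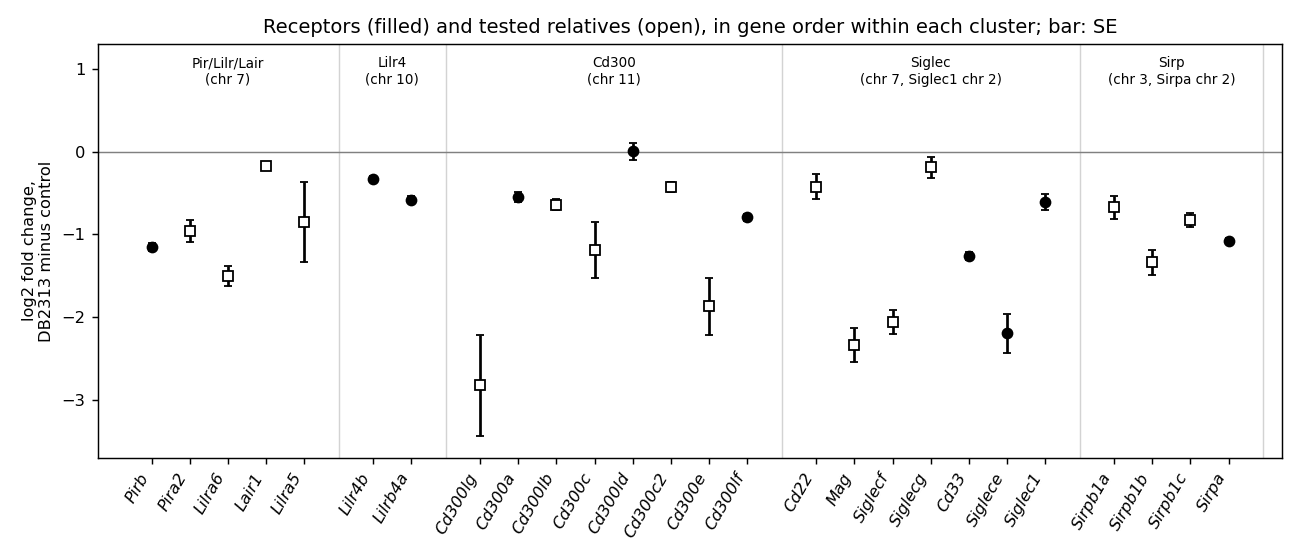
Log2 fold change (DB2313 minus control) with its SE for the 10 receptors (filled circles) and their tested relatives together with Lair1 (open squares), in gene order within each cluster. All points but Cd300ld lie below 0, and within the Siglec group the values span -0.19 in Siglecg to -2.34 in Mag.

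Levels between the receptors were compared per kb of gene length. In the control group the order was Sirpa at 87.6 ± 1.33, Lilr4b at 64.1 ± 0.999, Lilrb4a at 36.5 ± 1.83, Pirb at 34.3 ± 0.125, Cd300lf at 29.1 ± 0.570, Cd300a at 19.3 ± 0.665, Cd33 at 14.3 ± 0.537 and Cd300ld at 7.59 ± 1.21 CPM per kb (mean ± SD of 3 libraries per group). Siglece at 3.78 ± 0.912 and Siglec1 at 3.43 ± 0.0728 CPM per kb came last, and only the ranges of this last pair of neighbours overlapped. In the DB2313 group Lilr4b led with 50.9 ± 1.75 CPM per kb ahead of Sirpa at 41.4 ± 1.07 CPM per kb. Cd300lf at 16.8 ± 0.788 stood above Pirb at 15.4 ± 1.33 and Cd300a at 13.2 ± 1.40 CPM per kb, and the ranges of these neighbours overlapped. Cd300ld at 7.61 ± 0.706 was above Cd33 at 5.96 ± 0.399 CPM per kb, and Siglece at 0.819 ± 0.229 was last. Without division by length, 5 of the 10 receptors kept their rank in the control order. The 6 ITIM-bearing receptors were all lower, with a median log2 fold change of -0.94. Of the 4 others, 3 were lower, with a median of -0.47 over all 4. The difference between these classes was not tested.

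**Figure D3:**
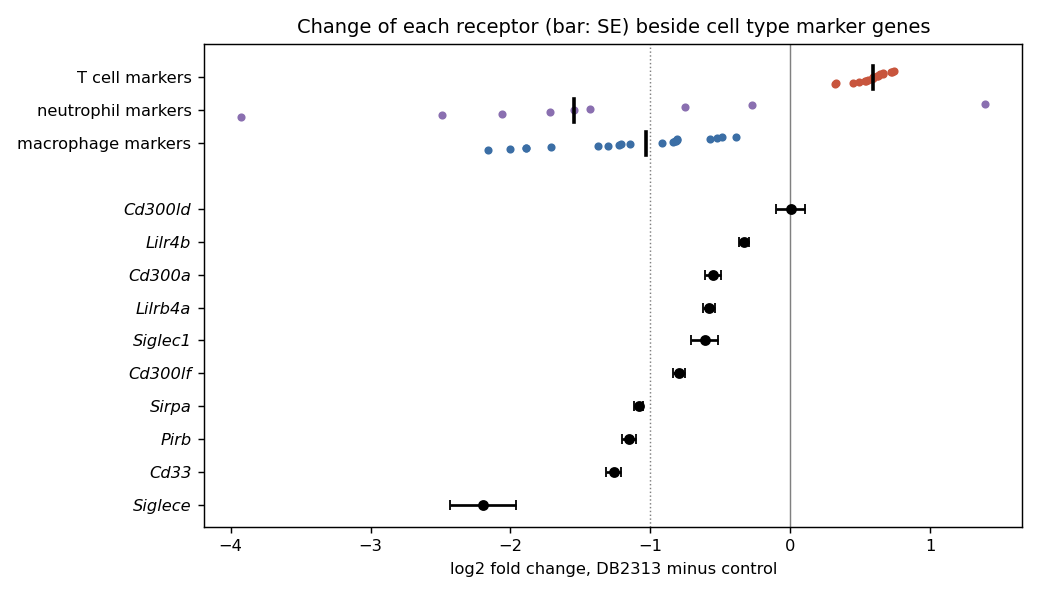
Log2 fold change (DB2313 minus control) of each receptor with its SE (black) beside single genes of the macrophage, neutrophil and T cell marker lists (coloured points; vertical bars, list medians). The receptors span -2.20 to 0.003, the macrophage markers -2.16 to -0.39 and the T cell markers 0.32 to 0.74.

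To compare the receptors with the macrophage markers in the same libraries, each receptor's CPM was divided by the summed CPM of the 20 markers. The sum was 14362.4 ± 202.4 CPM in the control group and 5484.7 ± 76.5 CPM with DB2313 (mean ± SD of 3 libraries per group), a log2 difference of -1.39. The log2 ratio to this sum differed between the groups, DB2313 minus control, by 1.40 in Cd300ld, 1.06 in Lilr4b, 0.83 in Cd300a, 0.81 in Lilrb4a, 0.76 in Siglec1, 0.595 in Cd300lf, 0.305 in Sirpa and 0.23 in Pirb. In these 8 receptors the DB2313 libraries all exceeded the control libraries (exact permutation test, two-sided, p = 0.1 each, again the lowest reachable, and 0.125 after Benjamini-Hochberg adjustment over the 10 receptors). Since the marker sum itself fell, the same held for 91.9% of all tested genes, and 0 receptors lay below without overlap, against 1.67%. Cd33 was at 0.13 and Siglece at -0.82 relative to the markers (p = 0.2 each, the same exact test), with the groups overlapping. Lyz2 alone gave 7702 CPM of the control sum and 2084 CPM of the DB2313 sum. Without it, 6 receptors lay above with no overlap, from 0.18 in Cd300lf to 0.98 in Cd300ld, against 85.8% of all tested genes. The other 4 lay below with no overlap, Sirpa at -0.11, Pirb at -0.19, Cd33 at -0.29 and Siglece at -1.24, against 3.26% (p = 0.1 for all 10 receptors, the same exact test). With the mean of log2 CPM over all 20 markers, Sirpa was at 0.061, Pirb at -0.011 and Cd33 at -0.116, with overlapping groups, so the direction of these 3 was not set.

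**Figure D4:**
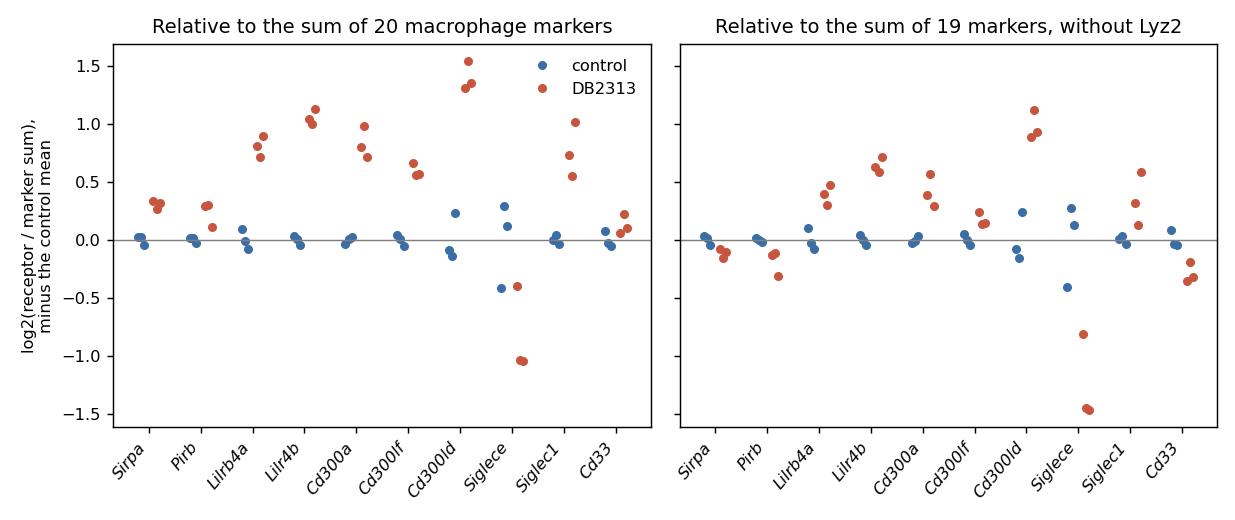
Log2 ratio of each receptor to the summed macrophage markers in each library, minus its control mean, with all 20 markers (left) and without Lyz2 (right). Points are libraries (control and DB2313, 3 each). Lilrb4a, Lilr4b, Cd300a, Cd300lf, Cd300ld and Siglec1 lie above the control points in both panels, and Sirpa and Pirb change sides. Cd33 and Siglece overlap the control points on the left and lie below them on the right.

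The molecules that act downstream of these receptors were followed as a list of 15 kinases, phosphatases and adaptors, of which 11 were lower and 2 higher, with a median log2 fold change of -0.58. Tyrobp, the DAP12 adaptor of paired receptors and the most abundant, was at 447.2 ± 23.8 and 230.1 ± 13.97 CPM (mean ± SD of 3 libraries per group), a log2 fold change of -0.96 (SE 0.04). Fgr, a Src family kinase of myeloid cells, had the lowest log2 fold change, -2.09 (SE 0.08). Ptpn22, a lymphocyte phosphatase, and Hcst (DAP10) had the highest, 0.43 (SE 0.04) and 0.20 (SE 0.07), and both turned negative when libraries were scaled to the T cell markers, at -0.15 and -0.38. Hcst did not pass with DESeq2 (adjusted p = 0.0554), or without control replicate 3 or DB2313 replicate 1 (adjusted p = 0.0818 and 0.0837, edgeR). Ptpn6 (SHP-1), Inpp5d (SHIP-1), Syk and Fcer1g were picked after their values were seen. Ptpn6 was at 340.2 ± 8.30 and 227.4 ± 6.94 CPM and Inpp5d at 231.8 ± 16.1 and 173.3 ± 0.998 CPM (mean ± SD of 3 libraries per group), with log2 fold changes of -0.58 (SE 0.04) and -0.42 (SE 0.04). Syk was at -0.86 (SE 0.04) and Fcer1g at -0.61 (SE 0.04). Ptpn11 (SHP-2), also named after its value was seen, was at -0.09 (SE 0.04, adjusted p = 0.0898, edgeR). It did not pass, and its groups overlapped. The call of Ptpn11 was not followed over the alternative fits. Without control replicate 3, 12 of the 15 listed genes were lower in place of 11.

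Of the 14 other inhibitory receptors, 9 were lower and 3 higher, with a median log2 fold change of -0.21. Pilra, a myeloid receptor for sialylated glycoproteins, and Clec4a2, an ITIM-bearing C-type lectin, were lowest, at -1.32 (SE 0.06) and -1.28 (SE 0.07). Cd5 and Ly9, which T cells express, were highest, at 0.45 (SE 0.05) and 0.35 (SE 0.04), and with scaling to the T cell markers they were at -0.14 and -0.24.

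Of 7 tested ligand genes, 2 were lower and 3 higher, within log2 fold changes of -0.23 and 0.19, and with library size scaling 0 were lower. Cd47, the ligand of SIRPα, which was also picked after its value was seen, was at 442.4 ± 6.68 and 420.3 ± 21.8 CPM (mean ± SD of 3 libraries per group). Its log2 fold change was -0.07 (SE 0.04, adjusted p = 0.106, edgeR), but 0.02 with library size scaling, so its direction was not set. It passed without DB2313 replicate 3 (adjusted p = 0.0345, edgeR). H2-K1, an MHC class I heavy chain and thus a ligand of Pirb, was at 4906 ± 122 and 5615 ± 137 CPM (mean ± SD of 3 libraries per group), a log2 fold change of 0.19 (SE 0.03) that became -0.39 with scaling to the T cell markers. H2-D1, another class I heavy chain, named after its value was seen, was at 0.14 (SE 0.03, adjusted p = 0.000397, edgeR). The class I light chain B2m was at -0.10 (SE 0.03), which did not pass with library size or upper quartile scaling (adjusted p = 0.948 and 0.38, edgeR). Spn (CD43), a sialylated surface protein, was at 0.17 (SE 0.03) and at -0.41 with scaling to the T cell markers. Cd200, which binds another inhibitory receptor, was at -0.23 (SE 0.08). It did not pass with library size or upper quartile scaling (adjusted p = 0.126 and 0.0656, edgeR). Nor did Cd200 pass without control replicate 1 or DB2313 replicate 3 (adjusted p = 0.0504 and 0.0869, edgeR).

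Genes that make, attach or remove the sialic acids read by Siglecs were mixed, with 8 of 15 tested genes lower, 3 higher and a median log2 fold change of -0.12. St6gal1, which makes the α2,6 linkage that CD22 binds, was the most abundant at 126.9 ± 3.24 and 155.2 ± 3.01 CPM (mean ± SD of 3 libraries per group), a log2 fold change of 0.29 (SE 0.04) that was -0.29 with scaling to the T cell markers. The sialyltransferase St3gal6 was at 0.87 (SE 0.11), while St6galnac6 and St3gal3 were at -0.85 (SE 0.07) and -0.70 (SE 0.08).

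**Figure D5:**
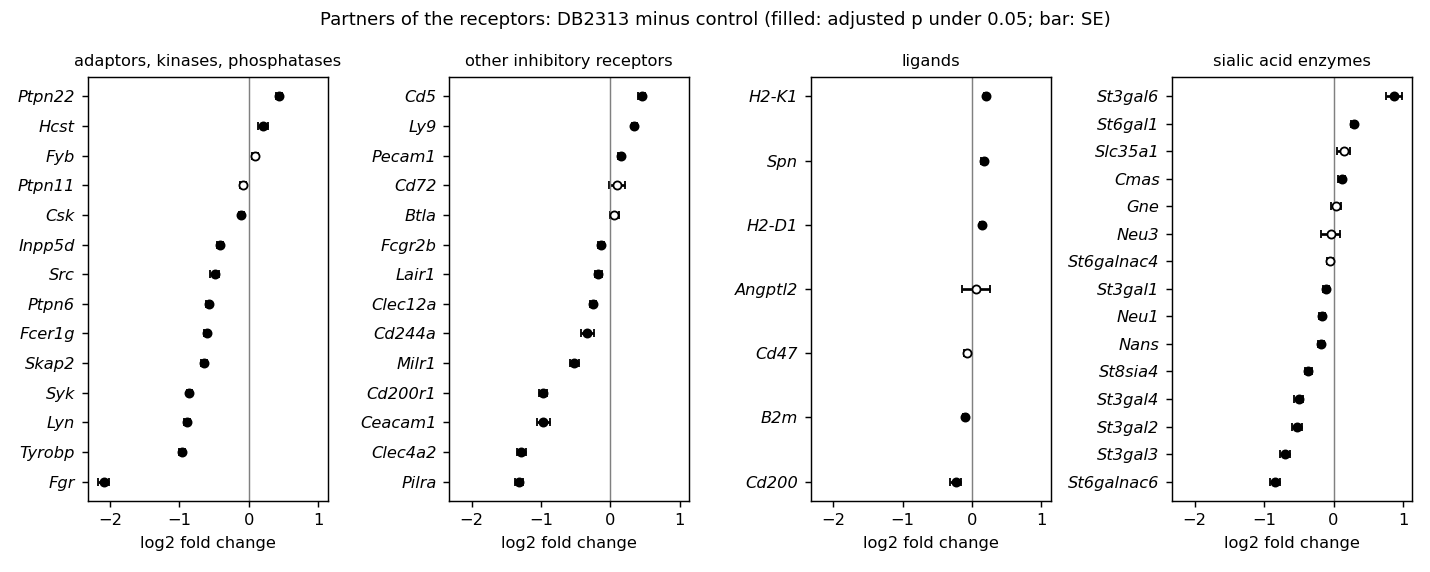
Log2 fold change (DB2313 minus control) with its SE for the signalling partners reported here, other inhibitory receptors, ligands and sialic acid enzymes (filled, adjusted p under 0.05; open, not passed). Signalling partners reach down to -2.09 in Fgr, while the ligands stay between -0.23 and 0.19.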

How the data were processed

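RNA was sequenced by a service provider, and the authors deposited raw counts per gene without normalization. The submitters' processing notes list CASAVA 1.8, HISAT2 2.0.5 and featureCounts 1.5.0-p3, whereas the paper names LifeScope. The genome build, annotation and strand setting are not given in the sources used here. The gene lengths in the table are the authors' own, and all 10 receptors have the GRCm38 coordinates of GENCODE M21. Columns were matched to samples by their labels.

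The 14883 genes that passed filterByExpr were tested with edgeR 4.0.16 (TMM, glmQLFit, glmQLFTest) (R 4.3.3), and p-values were adjusted over all of them by Benjamini-Hochberg. DESeq2 1.42.0, 3 other scalings, 2 other filters, a replicate block and leaving out each library were the alternatives. SEs were taken from the fitted change and its F value. Exact permutation tests used scipy 1.17.1. Scripts were tested on simulated counts. The members and lists were chosen with earlier results of these data known. Named partner genes are the most abundant of each list and its 2 lowest and 2 highest called changes, apart from relatives of a receptor and those marked in the text, and a partner gene that this rule names is not reported here. Of the 30 relatives listed, 21 were in the table under that name.

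Libraries held 16611975 to 18596217 counts, and the detection limit of 3 counts was 1.81e-05% in the smallest one, counting error only. Replicates differed by more than sampling noise (chi-square per gene 2.54 to 4.0), so none was counted as a copy.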

Additional observations from a re-analysis of the deposited data

How the results depend on the processing

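The 9 lower receptors stayed lower and called in every alternative run, and with scaling to the T cell markers Cd300ld joined them, giving 10. Of 130 comparisons of the 10 receptors' changes with an alternative, 126 kept both and 4 turned in sign, all of them in Cd300ld. With scaling to the T cell markers Cd300ld was at -0.58, a called fall. Over the 6 fits that each left out 1 library it stayed near no change, from -0.0732 to 0.14. In these fits the sign was negative if the library dropped was DB2313 replicate 2 or control replicate 1 or 2. Sirpa lay closest to the fold threshold, at -1.08, and was at -0.99 with library size scaling. Relative to the macrophage markers, 3 receptors changed sign. Sirpa was at -0.11 without Lyz2, Pirb at -0.19 without Lyz2 and -0.011 with the mean of log2 CPM, and Cd33 at -0.29 and -0.12.

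Scaling to the T cell markers gave 8 receptors past a log2 fold change of -1, 11484 lower and 178 higher genes in all, and 2482 lower genes with the fold threshold. Under it 14 other inhibitory receptors were lower and 0 higher, 0 signalling partners were higher, 7 ligands were lower and 0 higher, and 14 sialic acid genes were lower and 1 higher. It turned Ly9 (-0.24), Cd5 (-0.14), Hcst (-0.38), Ptpn22 (-0.15), H2-K1 (-0.39), H2-D1 (-0.44), Spn (-0.41), St6gal1 (-0.29), Tcf7 (-0.0274), Cd79b (-0.12) and Cd8a (-0.0493), by its own construction as a shift of all genes. Library size scaling gave 4931 higher genes, 0 lower ligands and 5 lower sialic acid genes and turned Cd47 (0.0207), and upper quartile scaling gave 0 lower ligands. DESeq2 called 1 higher signalling partner. Over the fits without 1 library, 1 to 3 signalling partners were higher (1 without control replicate 3 or DB2313 replicate 1) and 1 to 2 ligands were lower (1 without control replicate 1). The ratio of Lilrb4a to Lilr4b differed by -0.27 to -0.22 on the log2 scale when single libraries were left out. Without division by length, 5 receptors kept their rank.

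With the replicate number as a block, 9 receptors, 3525 genes in all lower and 2912 higher were called. Deviations of same-numbered libraries from the group means correlated at -0.0228 to -0.00332, within the -0.0288 to 0.0407 of the other pairings. The ability of this check to detect a pairing was not tested, so a shared culture or mouse is not excluded. Of 608 comparisons of 47 other genes, 576 kept direction and call. Siglece had at most 143 counts in a library, and its change had the largest SE of the 10 receptors (0.24).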
